A study of Homo sapiens with 9 samples.

Results

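The second hairpin against CTDP1, shCTDP1-#2, was compared with a scrambled hairpin, shScr, in MDA-MB-231 cells, an established human triple-negative breast cancer line. The comparison used 6 of the 9 RNA-seq libraries of the series, 3 for each hairpin. The other 3 libraries carried shCTDP1-#1 and were used to ask which changes shCTDP1-#2 made alone. All 9 libraries came from cells infected with a lentivirus that had been packaged in 293FT cells and selected with puromycin, the scrambled controls included. Total RNA went into TruSeq v2 libraries, a kit that does not mark strand, so reads from a gene and an antisense partner cannot be told apart. Whether a library's cells were a clone or a mixed infected population, and whether replicates were grown apart, is not given in the sources used here. Each p-value thus rests on the variation among these libraries and may reflect technical spread alone.

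CTDP1, also called FCP1, dephosphorylates the C-terminal domain (CTD) of the largest subunit of RNA polymerase II, so that the enzyme can be recycled for new rounds of transcription. It also acts on substrates of CDK1 as cells leave mitosis. Its BRCT domain binds FANCI, a protein of the Fanconi anemia pathway of DNA crosslink repair, in breast cancer cells.

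Each value is the TPM (a transcript level scaled per transcript length and per library) of an interval on hg19. An interval entered the comparison where at least 3 of the 6 libraries held at least 1 TPM, which 14411 of 55527 intervals did. Just inside that threshold, 846 intervals reached 1 TPM in exactly 3 libraries, and just outside it 657 did so in exactly 2. In 505 intervals all 3 shCTDP1-#2 libraries and no shScr library reached 1 TPM, and in 83 the reverse held. TPM keeps no read total, and library depth is unknown. Differences are given as log2(TPM + 1), shCTDP1-#2 minus shScr, which understates the change of low intervals. The rows of the deposited files carry no gene names, and a name is given here only where the hg19 locus was known.

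The targeted gene, CTDP1 (chr18:77439801-77514510), stood at 13.06, 12.38 and 12.01 TPM with shScr and at 3.77, 3.42 and 4.10 in the shCTDP1-#2 libraries. All knockdown libraries lay below all controls, and the mean fell by 1.503 on the log2 scale (SE 0.098, limma adjusted p = 3.5e-07). With shCTDP1-#1 the level was lower still, at 2.46, 2.62 and 2.46 TPM (adjusted p = 0.0036 between the hairpins). Of the defining markers of the line, vimentin (VIM), CD44 and EGFR were present in all 9 libraries, and the hormone receptor genes ESR1 and PGR were at 0.27 TPM or less in each. The epithelial marker CDH1 was at 0.18 TPM or less in the shScr and shCTDP1-#2 libraries. EPCAM, a second epithelial marker, was not near 0 and stood at 6.16 to 9.81 TPM with shScr and 6.54 to 8.07 with shCTDP1-#2. The 3 shCTDP1-#2 files shared a row order that no other file had, and the most abundant 100 intervals took 21.4 to 21.9% of their TPM against 26.1 to 26.9% with shScr. The part of either in the results was not tested.

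Most intervals above the threshold differed between shCTDP1-#2 and shScr. At an adjusted p under 0.05 (limma over 14411 intervals), 5743 intervals were higher (39.9%) and 3690 lower (25.6%), together 65.5%. Most differences were modest, with a median absolute log2 difference of 0.55 among the called intervals and a median standard error of 0.092. A difference of 1 or more was reached by 1234 higher intervals (8.56%) and 347 lower ones (2.41%). A difference of 2 or more was reached by 152 and 10. The balance depended on the scaling. Of the calls, 60.9% were higher as deposited, 53.8% after upper-quartile scaling (5015 higher, 4305 lower) and 50.04% after median-of-ratios scaling (4656 higher, 4648 lower). Between the hairpins the share of calls that were higher went from 61.0% to 52.0% and 50.3%. The median difference against shScr over all tested intervals went from 0.12 as deposited to 0.042 and 0.0059. Small differences below are therefore to be read against a shared shift of about that size.

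Large differences were described by span and level, with no test. Short and low intervals can pass the threshold through the group in which they are high, and more did so through shCTDP1-#2 (505) than through shScr (83), so the shares below carry that filter. Of the 270 tested intervals of 500 bases or less, 19.3% were higher by 1 or more and 1.11% lower by as much. Of the 2457 longer than 100000 bases, 5.05% and 1.79% were. The median span was 15374 bases among intervals higher by 1 or more, 22536 among those lower by 1 or more and 27216 over all. Their median levels were 6.53, 17.4 and 18.9 TPM. By chromosome, intervals higher by 1 or more were most frequent on chromosome 6 (12.9% of 626) and chromosome 19 (12.3% of 1025).

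The largest rise among intervals on assembled chromosomes was that of ID2 (chr2:8818975-8824583), an inhibitor of basic helix-loop-helix transcription factors that holds back differentiation. It stood at 1.49, 1.18 and 1.92 TPM with shScr and at 66.3, 60.7 and 68.5 TPM with shCTDP1-#2, a 42.6-fold ratio of means (log2 difference 4.72, SE 0.098, limma adjusted p = 2.3e-10). Every shCTDP1-#2 library was far above every control, but ID2 was picked by a rule that asked for groups that do not overlap. ID2 was higher still with shCTDP1-#1, at 80.6 to 84.05 TPM (limma adjusted p = 0.016 between the hairpins). The 3 other ID genes rose too: ID1 from a mean of 75.2 to 117.7 TPM, ID3 from 34.4 to 63.7 and ID4 from 2.64 to 5.15. The family thus had 4 of 4 members higher, where 39.9% of all tested intervals were, with a median log2 difference of 0.81 against 0.12 over all intervals, and the rise of ID2 was by far the greatest of the 4.

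ATF3 (chr1:212738676-212794119), a transcription factor induced by many stresses, rose from 8.10, 9.59 and 7.11 TPM to 93.9, 84.0 and 93.9 TPM (log2 difference 3.31, SE 0.090, adjusted p = 1.4e-09). RFPL4A and RFPL4AL1, neighbouring near-identical genes on chromosome 19 (56270380-56274541 and 56280507-56284545), rose from 0.28 to 0.58 TPM up to 22.3 to 29.2 TPM, and from 0 to 0.54 TPM up to 13.7 to 15.4 TPM. How reads were split between these copies is uncertain, so their rises may not be separate. Both passed the threshold for testing only through shCTDP1-#2. MYL12A, a myosin regulatory light chain gene on chromosome 18 (3247479-3256234), rose at a much higher level, from 371, 376 and 396 TPM to 1563, 1622 and 1611 TPM (log2 difference 2.07, SE 0.032, adjusted p = 1.3e-10). S100A13, a calcium-binding protein gene on chromosome 1 (153591263-153606568), rose from 204 to 227 TPM up to 1159 to 1244 TPM. All 5 genes also rose with shCTDP1-#1. RFPL4A and RFPL4AL1 rose further there, to means of 42.0 and 23.9 TPM. ATF3, MYL12A and S100A13 rose less, to 72.4, 1386 and 855 TPM. The rule that picked these 5 genes asked for groups that do not overlap, so their lack of overlap is no result. It held for 41.7% of all tested intervals in the higher direction and 27.3% in the lower.

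Several of the largest rises were short intervals for which no name was certain. The interval chr6:34231088-34231450, 363 bases long, held 0, 1.03 and 0 TPM with shScr and 23.9, 22.5 and 19.7 TPM with shCTDP1-#2 (adjusted p = 1.8e-07). The intervals chr18:9473419-9474004 and chr12:80422673-80423411 rose from at most 0.29 TPM to 9.84 to 11.2 TPM and 10.1 to 10.7 TPM. All 3 were near 0 in the controls and present in each knockdown library, and those on chromosomes 18 and 12 passed the threshold for testing only through shCTDP1-#2. All 3 also rose with shCTDP1-#1, to means of 13.6, 12.3 and 11.1 TPM in the order named. The longer interval chr1:149825607-149832714, in a histone cluster, was less even, at 3.53, 0 and 3.27 TPM against 28.9, 26.5 and 59.0 TPM (adjusted p = 0.0015). Some short intervals moved against the longer interval that holds them. The 314 bases at chr5:148349903-148350216 rose from at most 1.58 TPM to 14.6 to 19.3 TPM, while the interval around them, chr5:148303202-148442726, fell from a mean of 12.99 to 5.81 TPM. The interval chr11:64013436-64015689 rose from 11.8 to 12.1 TPM up to 108 to 141 TPM, while PPP1R14B, a phosphatase inhibitor gene that shares 978 bases with it, fell from a mean of 481 to 376 TPM. A second overlapping interval, chr11:64014411-64016966, which shares 1279 bases with it, rose from a mean of 1.80 to 5.17 TPM. Where intervals overlap, the deposited levels rest on how reads were divided between them.

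**Figure D1:**
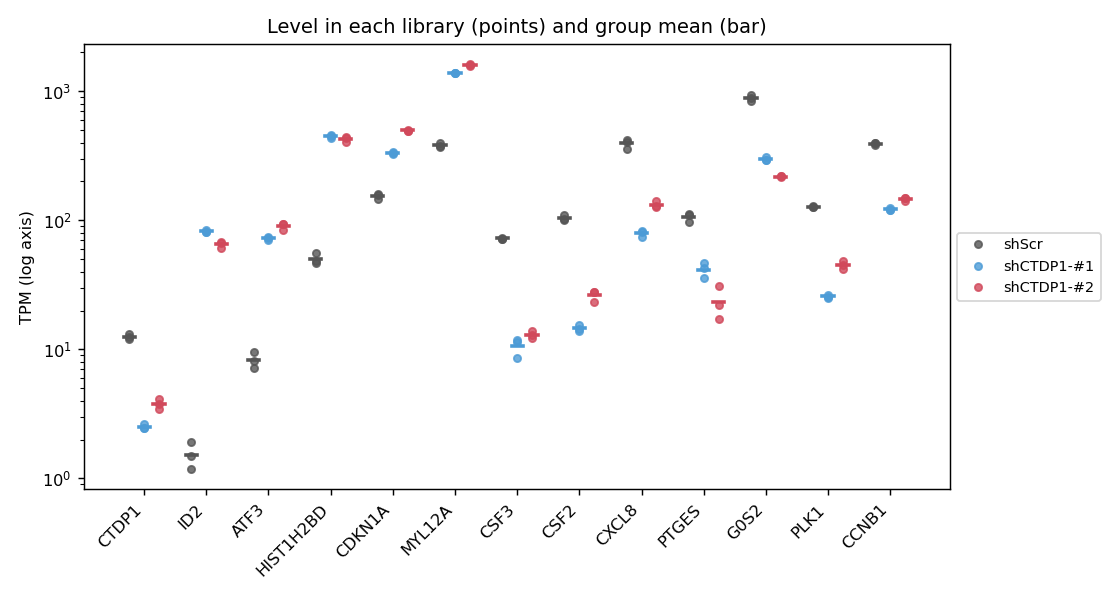
TPM on a log axis in each of the 9 libraries (points) with the group mean (bar) for 13 genes; grey is shScr, blue shCTDP1-#1 and red shCTDP1-#2. CTDP1 is lowest with shCTDP1-#1, ID2 lies at 1.18 to 1.92 TPM with shScr and at 60.7 to 68.5 TPM with shCTDP1-#2, and none of the 13 genes has a red point among the grey ones. ID2, ATF3, MYL12A, CSF3, CSF2, PTGES and G0S2 were picked by a rule that asked for this. It held for 41.7% of all tested intervals in the higher direction and 27.3% in the lower.

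Histone genes formed a further group among the rises. Replication-dependent histone mRNAs mostly lack a poly(A) tail, while some members of the clusters also make polyadenylated transcripts. HIST1H2BD (chr6:26158349-26171577) went from 46.5, 48.3 and 55.8 TPM to 440, 438 and 402 TPM (log2 difference 3.07, SE 0.064, adjusted p = 2.3e-10). HIST1H2BK, at a higher level, went from 216 to 232 TPM up to 891 to 925 TPM, and HIST2H4A from 9.41 to 14.6 TPM up to 146 to 188 TPM. HIST1H2AG rose from at most 1.69 TPM to at least 20.3 TPM. Of 11 histone genes matched and tested, 10 were higher, with a median log2 difference of 1.99. HIST1H1E, a linker histone gene, was the exception, with 2.52 to 4.02 TPM and 3.57 to 3.85 TPM. After either rescaling 9 were higher, since H2AFZ, a replication-independent variant, was no longer called. With shCTDP1-#1 against shScr, 10 were higher and 1 lower, where 35.0% and 28.9% of all intervals were, with a median of 1.89. This list was drawn up after values had been seen. Named or not, 11 of 15 tested intervals in chr6:26020718-26285762 and 12 of 19 in chr6:27090436-27861669, which hold the histone clusters, were higher, where 39.9% is the share over all intervals. These windows were also chosen after values had been seen. They hold HIST1H2BD and HIST1H2AG, so they are not independent of the list. Histone copies are near-identical, and reads may have been divided between them.

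The largest falls included secreted inflammatory factors. CSF3 (chr17:38171614-38174066), which encodes the granulocyte growth factor G-CSF, fell from 72.2, 72.3 and 72.6 TPM to 12.8, 13.9 and 12.3 TPM (log2 difference -2.39, SE 0.10, adjusted p = 2.3e-08). CSF2, which encodes the related factor GM-CSF, fell from 103, 99.98 and 110.8 TPM to 27.99, 27.85 and 23.2 TPM. PTGES (chr9:132500610-132515326), which makes prostaglandin E2, fell from 97.3, 112.9 and 109.4 TPM to 21.9, 30.7 and 17.1 TPM. For each of these genes the highest shCTDP1-#2 library was well under the lowest control, but the rule that picked them asked for groups that do not overlap. CSF3 and CSF2 fell further with shCTDP1-#1, to means of 10.6 and 14.5 TPM, and PTGES less, to 41.5 TPM. Of 15 tested genes for inflammatory secreted factors and NF-kB targets, 13 were lower, where 25.6% of all tested intervals were, with a median log2 difference of -0.88 against 0.12. The neutrophil-attracting chemokine CXCL8 fell from 359, 423 and 406 TPM to 128, 142 and 126 TPM, and CXCL1 from a mean of 367 to 159.8 TPM. Their means with shCTDP1-#1 were 79.85 and 178.6 TPM. IL1A, IL1B and IL11 each fell by more than 1 on the log2 scale, and IL6 by 0.86. The negative regulators NFKBIA and TNFAIP3 fell by 0.26 and 0.29, the latter call being lost without shScr replicate 1 (adjusted p = 0.0966), shScr replicate 3 (0.0656) or shCTDP1-#2 replicate 2 (0.0845). PTGS2, the cyclooxygenase that feeds PTGES, went the other way, from 9.21, 9.75 and 8.29 TPM to 20.7, 17.7 and 18.3 TPM (log2 difference 0.98, adjusted p = 7.2e-06). With shCTDP1-#1, PTGS2 stood at 6.51 to 7.71 TPM.

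Other large falls had no shared role by which they were picked. G0S2 (chr1:209848765-209849733), an inhibitor of triglyceride breakdown, fell from 843, 888 and 930 TPM to 220, 219 and 215 TPM. SPNS2, a sphingosine-1-phosphate transporter, fell from 10.6 to 12.1 TPM down to 1.75 to 2.44 TPM. CST7, a cystatin protease inhibitor, fell from 14.2 to 15.6 TPM down to 3.23 to 3.38 TPM, and ZNF358, a zinc-finger gene, from 32.3 to 34.7 TPM down to 6.54 to 7.00 TPM. MPP4, a membrane scaffold gene (chr2:202509593-202563417), fell from 7.80 to 9.56 TPM down to 1.08 to 1.30 TPM. Its neighbour TMEM237 fell from a mean of 23.3 to 5.98 TPM. TMEM237 lies outside the rule for named intervals and was singled out after its values were seen. G0S2, SPNS2, CST7, ZNF358 and MPP4 were also lower with shCTDP1-#1 than with shScr, at means of 298, 1.01, 3.69, 21.8 and 1.75 TPM. The fall with the greatest log2 value, -2.55 at chr19:16688453-16770926, was uneven in the controls (20.1, 12.2 and 4.61 TPM against 2.91, 0.97 and 0). Its call was lost when shScr replicate 1 (adjusted p = 0.114), shScr replicate 2 (0.101), shCTDP1-#1 replicate 1 (0.0614), shCTDP1-#2 replicate 2 (0.093) or shCTDP1-#2 replicate 3 (0.125) was left out, and with a pseudocount of 0.1 (0.0959) or 0.5 (0.0536). It overlaps 6 other tested intervals, of which chr19:16685718-16739873 was higher (mean 15.2 to 22.3 TPM), chr19:16741562-16771253 lower (190.8 to 110.3 TPM) and 4 not called. The interval chr9:67792938-67794111 fell from 2.84 to 7.57 TPM down to at most 0.12 TPM, while the interval that holds it, chr9:67792167-67794649, rose from a mean of 2.15 to 4.99 TPM.

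Metallothioneins, small proteins that bind zinc and copper, did not move together. MT1A (chr16:56672578-56673999) fell from 17.4, 16.2 and 18.9 TPM to 2.97, 4.0 and 2.73 TPM. MT2A fell from 1536 to 1654 TPM down to 563 to 620 TPM, and MT1X from a mean of 177 to 100.1 TPM. MT1E went from 261 to 287 TPM up to 296 to 350 TPM (log2 difference 0.24, adjusted p = 0.0046), a call lost after median-of-ratios scaling (adjusted p = 0.14). Of the list's 6 genes, which do not include MT1A, MT1F, MT1G and MT1M lay below the threshold for testing.

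Genes of cell division were lower throughout. All 10 tested genes of G2 and mitosis fell, where 25.6% of all tested intervals did, with a median log2 difference of -1.12. PLK1 (chr16:23688977-23701688), a mitotic kinase, fell from 125.9, 129.5 and 125.9 TPM to 48.1, 41.8 and 44.9 TPM (log2 difference -1.48, SE 0.055, adjusted p = 8.1e-09). CCNB1, the cyclin partner of CDK1 at entry into mitosis, fell from 399, 382 and 395 TPM to 148, 149 and 142 TPM. CDC20, an activator of the anaphase-promoting complex, fell from 418 to 437 TPM down to 183 to 197 TPM. In none of these genes did any shCTDP1-#2 library reach a control, as was so for 27.3% of all tested intervals in the lower direction. The smallest fall of the 10 was that of CDK1 itself, by 0.44, and that of MKI67 (-0.61) was no longer called without shScr replicate 1 (adjusted p = 0.051) or shCTDP1-#2 replicate 1 (0.053). In bulk RNA, fewer cells of a type and less RNA per cell cannot be told apart. The fall was smaller than with shCTDP1-#1 for 6 of the 10 in the test between the hairpins (5 under either rescaling), where 31.8% of all intervals were higher with shCTDP1-#2. PLK1 was among the 6, at 25.1 to 26.4 TPM with shCTDP1-#1.

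All 10 tested genes of replication licensing and the replication fork fell as well, against the same 25.6%, with a median log2 difference of -0.44. MCM3 and MCM6, subunits of the replicative helicase, fell the most, by 0.87 and 0.77 on the log2 scale. MCM6 went from 45.8, 46.1 and 47.4 TPM to 26.98, 26.5 and 26.7 TPM. CDT1, which loads the helicase onto DNA, fell from 44.1 to 48.2 TPM down to 29.7 to 34.2 TPM, and PCNA, the sliding clamp, from 319 to 330 TPM down to 270.8 to 289.9 TPM. For MCM2, which fell by 0.15, the call was lost without shScr replicate 2 (adjusted p = 0.0768), shScr replicate 3 (0.0602) or shCTDP1-#2 replicate 2 (0.0755). Both lists kept all 10 members lower under both rescalings.

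The promoters of these 2 sets differed in their letters. The CDE/CHR element with CCAAT boxes is known from genes that peak in G2 and mitosis, and E2F sites from genes of the G1/S boundary. In RefSeq promoters of 300 bases around the annotated start (GRCh38.p14, not the build of the files), 3 motifs were searched on both strands: CHR as TTTGAA or TTTAAA, the CCAAT box as CCAAT, and the E2F site as TTTCCCGC, TTTGGCGC, TTTCGCGC or TTTGCCGC. E2F matches can overlap on opposite strands. These letters were chosen after values had been seen. For each set 8 of 10 genes had an entry. CHR letters were in 6 of 8 promoters of the mitotic set and in no promoter of the 8 of the licensing set, against 24.3% of 27305 promoters. CCAAT was in 8 of 8 and 6 of 8, against 35.7%. E2F letters were in 1 of 8 and 7 of 8, against 3.33%. The promoters of 3 mitotic genes that fell strongly are shown first, with CHR and CCAAT letters in capitals: PLK1 at chr16:23678639-23678938, CDC20 at chr1:43358731-43359030 and CCNB1 at chr5:69166900-69167199, all on the plus strand. MCM6 (chr2:135876394-135876693, minus strand) and CDT1 (chr16:88803539-88803838, plus strand) follow as the licensing genes, with E2F letters in capitals. All run 5′ to 3′.
PLK1: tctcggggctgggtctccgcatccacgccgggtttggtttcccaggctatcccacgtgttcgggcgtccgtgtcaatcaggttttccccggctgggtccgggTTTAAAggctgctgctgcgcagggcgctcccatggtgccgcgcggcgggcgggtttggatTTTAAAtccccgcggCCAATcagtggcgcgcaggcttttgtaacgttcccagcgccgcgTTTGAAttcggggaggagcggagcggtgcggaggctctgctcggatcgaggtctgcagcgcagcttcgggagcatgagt
CDC20: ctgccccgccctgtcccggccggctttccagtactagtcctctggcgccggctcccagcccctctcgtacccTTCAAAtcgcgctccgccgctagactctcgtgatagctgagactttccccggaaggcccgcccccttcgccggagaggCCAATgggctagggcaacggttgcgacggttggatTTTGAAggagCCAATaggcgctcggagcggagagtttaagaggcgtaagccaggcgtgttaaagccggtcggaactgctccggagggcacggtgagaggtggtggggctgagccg
CCNB1: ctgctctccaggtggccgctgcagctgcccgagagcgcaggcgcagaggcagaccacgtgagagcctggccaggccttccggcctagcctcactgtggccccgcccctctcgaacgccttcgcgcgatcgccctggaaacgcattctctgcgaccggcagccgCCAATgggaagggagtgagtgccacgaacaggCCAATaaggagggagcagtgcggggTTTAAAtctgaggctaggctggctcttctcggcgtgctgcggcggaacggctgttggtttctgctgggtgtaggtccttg
MCM6: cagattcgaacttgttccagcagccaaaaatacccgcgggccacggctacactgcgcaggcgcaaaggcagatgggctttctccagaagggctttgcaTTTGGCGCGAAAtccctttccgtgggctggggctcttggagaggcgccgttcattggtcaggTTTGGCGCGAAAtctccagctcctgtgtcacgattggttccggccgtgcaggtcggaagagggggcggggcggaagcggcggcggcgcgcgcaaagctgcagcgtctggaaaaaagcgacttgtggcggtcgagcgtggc
CDT1: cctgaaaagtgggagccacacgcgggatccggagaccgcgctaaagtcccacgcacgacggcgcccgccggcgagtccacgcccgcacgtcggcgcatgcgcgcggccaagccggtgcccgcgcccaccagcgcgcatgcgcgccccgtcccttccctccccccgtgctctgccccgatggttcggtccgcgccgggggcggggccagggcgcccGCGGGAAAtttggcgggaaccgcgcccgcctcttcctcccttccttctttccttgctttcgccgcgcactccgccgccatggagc
In these windows PLK1 holds 3 CHR matches, CDC20 holds 2 and CCNB1 holds 1. MCM6 holds 4 E2F matches, counted on both strands and in part overlapping, and CDT1 holds 1. A match is a description of the letters and not a measured site.

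Most genes of a list of cell cycle inhibitors were higher. Of 9 tested CDK inhibitors and p53 targets, 7 were higher and 2 lower, against 39.9% and 25.6% over all intervals, with a median log2 difference of 1.03. CDKN1A, which encodes the CDK inhibitor p21, rose from 159.7, 158 and 146 TPM to 495, 506 and 491 TPM (log2 difference 1.68, SE 0.039, adjusted p = 4.4e-10). CDKN1B, CDKN1C and GADD45B each rose by more than 1, and BTG2, an antiproliferative gene, went from at most 0.18 TPM to 2.08 to 3.11 TPM and so passed the threshold for testing only through shCTDP1-#2. MDM2, the p53 ubiquitin ligase, fell from 28.7 to 32.3 TPM down to 16.4 to 22.6 TPM, and the kinase gene PLK2 fell by 0.53. CDKN2B was listed at 0 in all 9 libraries. CDKN1A was higher with shCTDP1-#2 than with shCTDP1-#1, where it stood at 327 to 336 TPM (adjusted p = 8.5e-07).

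Of 10 tested genes of the integrated and oxidative stress responses, 7 were higher and 3 not called, where 39.9% of all intervals were higher. The counts became 6 higher and 1 lower after upper-quartile scaling and 5 and 1 after median-of-ratios scaling. CHAC1, SESN2 and DDIT3, targets of ATF4, rose by 1.32, 1.24 and 1.17 on the log2 scale. DDIT3, which encodes CHOP, went from 42.6, 43.0 and 50.7 TPM to 93.1, 105 and 112 TPM. ATF4 itself moved by 0.13 (adjusted p = 0.0072), which was no longer called after upper-quartile scaling (0.34) or median-of-ratios scaling (0.97). TRIB3 (0.28) lost its call under median-of-ratios scaling (adjusted p = 0.068). Immediate early genes, which respond within minutes to growth signals, divided into 5 higher and 4 lower of 9, ATF3 among the higher, where 39.9% and 25.6% of all intervals were. FOSB rose from 1.08 to 1.17 TPM up to 8.18 to 9.55 TPM and FOS from 3.96 to 4.97 TPM up to 11.2 to 12.7 TPM, while FOSL1, JUN and MYC fell by 0.29 to 0.41. EGR1 fell by 0.32, a call lost without shScr replicate 1 (adjusted p = 0.0881), shScr replicate 2 (0.06) or shCTDP1-#2 replicate 2 (0.0851).

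Of 6 genes that respond to YAP and TGF-beta signalling, 5 were lower, where 25.6% of all intervals were, with a median log2 difference of -0.92. CYR61 fell from 638, 685 and 684 TPM to 364.8, 360.8 and 358.6 TPM, and ANKRD1 from 292 to 301 TPM down to 131 to 136 TPM. CTGF and THBS1 fell by 0.92 and 1.16. TGFBI rose from 35.0 to 36.5 TPM up to 62.8 to 71.8 TPM. Of 8 tested genes of sterol synthesis, 4 were higher and 2 lower, which is close to the 39.9% and 25.6% over all intervals. IDI1, an isomerase of isoprenoid synthesis, rose from 43.3 to 46.6 TPM up to 100.3 to 109.4 TPM. HMGCS1 was called at 0.31 (adjusted p = 0.044) with overlapping groups, and lost the call under both rescalings (0.105 and 0.164) and without shScr replicate 2 or 3, shCTDP1-#1 replicate 2 or shCTDP1-#2 replicate 1 or 3 (0.0504 to 0.166). FDFT1 fell by 0.26.

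Enzymes that act on the polymerase CTD did not share a direction. Of 14 tested CTD kinases, cyclins and phosphatases, CTDP1 included, 6 were higher and 3 lower as deposited, close to the 39.9% and 25.6% over all intervals, with a median log2 difference of 0.094. Under either rescaling 4 were higher and 5 lower, and the median turned to -0.031 with median-of-ratios scaling. The P-TEFb subunits rose: CCNT2 from 10.7, 9.77 and 9.76 TPM to 27.94, 23.3 and 26.2 TPM, CCNT1 from 10.5 to 11.6 TPM up to 18.6 to 19.5 TPM, and the kinase CDK9 from 46.3 to 50.9 TPM up to 64.5 to 75.9 TPM. These 3 were also higher than with shCTDP1-#1 (adjusted p = 2.1e-05, 8.1e-04 and 0.0011). CTDSPL, a small CTD phosphatase, fell from 24.4, 28.2 and 27.03 TPM to 6.23, 8.26 and 8.76 TPM (log2 difference -1.66, SE 0.12, adjusted p = 5.7e-07). The small rises of SSU72 (0.14) and CDK13 (0.20) were not called under either rescaling (adjusted p 0.158 to 0.758). CDK13 also lost its call without shScr replicate 2 or 3 (0.0803 and 0.109) or shCTDP1-#2 replicate 1 or 3 (0.0716 and 0.142).

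In the Fanconi anemia and homologous recombination list, 6 of 11 genes were lower, where 25.6% of all intervals were, and the other 5 were not called, with a median log2 difference of -0.37. FANCI, the partner of CTDP1 named above, fell from 72.9, 62.6 and 76.8 TPM to 43.6, 49.0 and 44.1 TPM (log2 difference -0.62, SE 0.077, adjusted p = 4.1e-05). FANCL and BRIP1 fell by 0.41 and 0.37. The call of FANCD2 (-0.49) was lost without shScr replicate 1 (adjusted p = 0.0545), shScr replicate 2 (0.0528) or shCTDP1-#2 replicate 2 (0.0646). That of BARD1 (-0.69) was lost without any 1 of the 6 shScr and shCTDP1-#2 libraries (0.0594 to 0.0939). BRCA1 and BRCA2 stood at 24.02 to 29.4 and 8.96 to 10.3 TPM with shScr and at 23.5 to 29.1 and 9.46 to 11.8 TPM with shCTDP1-#2, and were not called (adjusted p = 0.79 and 0.51).

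**Figure D2:**
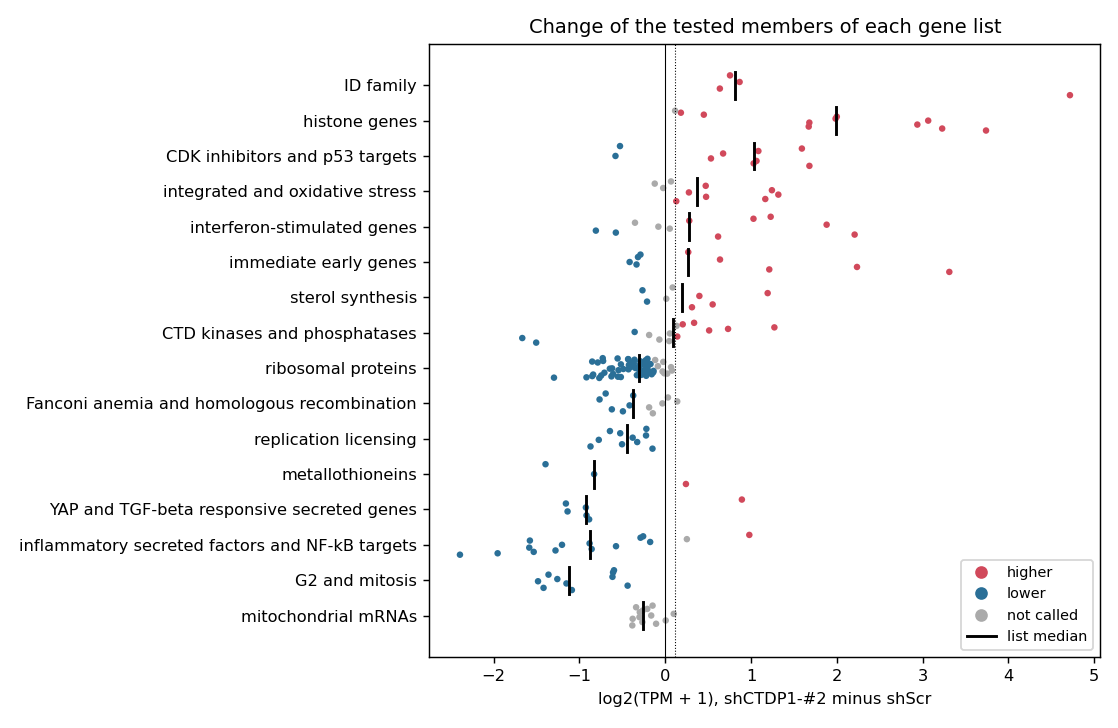
Log2 difference (horizontal axis, shCTDP1-#2 minus shScr on log2(TPM + 1)) of each tested member of 16 gene lists, with the list median as a black bar; red is higher, blue lower and grey not called, the solid line marks 0 and the dotted line the median of all tested intervals (0.12). All 10 genes of G2 and mitosis and all 10 of replication licensing lie left of 0, and all 4 ID genes lie right of it.

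The largest rises in TPM were those of FTL and B2M. FTL (chr19:49468558-49470135), the ferritin light chain that stores iron, rose from 3250, 3473 and 3436 TPM to 8359, 8345 and 8345 TPM (log2 difference 1.30, SE 0.029, adjusted p = 3.9e-10). With shCTDP1-#1 it stood at 4102 to 4198 TPM, a smaller rise of 0.29 on the log2 scale (adjusted p = 8.3e-06). B2M (chr15:45003675-45011075), the light chain of MHC class I, rose from 2184, 2486 and 2345 TPM to 5191, 5721 and 5247 TPM, but fell with shCTDP1-#1 to 1577 to 1702 TPM. The difference between the hairpins was 1.70 on the log2 scale (adjusted p = 7.3e-09). An unnamed interval of 432 bases on the X chromosome (108297361-108297792) rose from a mean of 1611 to 3200 TPM. The largest falls in TPM were those of EEF1A1, a translation elongation factor, from 10104 ± 65.3 to 4839 ± 128 TPM (mean ± SD, n = 3), NPM1 from 5022 ± 64.3 to 2413 ± 105, ACTB from 4413 ± 86.8 to 2399 ± 70.1, RPLP0 from 4288 ± 194 to 2518 ± 82.9 and RPS2 from 2696 ± 132 to 1097 ± 23.98.

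RPLP0 and RPS2 are ribosomal proteins, and most of that family was lower. Of 65 matched and tested ribosomal protein genes, 57 were lower, where 25.6% of all intervals were, and 8 not called, with a median log2 difference of -0.31; after the rescalings 60 and 61 were lower. Their summed level was 12.8, 13.9 and 14.0% of all TPM with shScr, 13.5, 13.4 and 12.9% with shCTDP1-#1, and 9.94, 10.8 and 10.5% with shCTDP1-#2. Each shCTDP1-#2 library was thus below every other library. RPS2 (chr16:2012053-2014861) fell from 2546, 2792 and 2751 TPM to 1120, 1072 and 1100 TPM, with 1769 to 1820 TPM with shCTDP1-#1. RPS3 and RPL31 followed, with falls of 0.92 and 0.85. Against shCTDP1-#1, 60 of the 65 were lower (63 under either rescaling), where 20.3% is the share over all intervals. With shCTDP1-#1 against shScr, 20 were higher and 27 lower, where 35.0% and 28.9% of all intervals were. This list was drawn up after values had been seen. Many of these genes have processed copies across the genome, which can take up part of their reads.

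**Figure D3:**
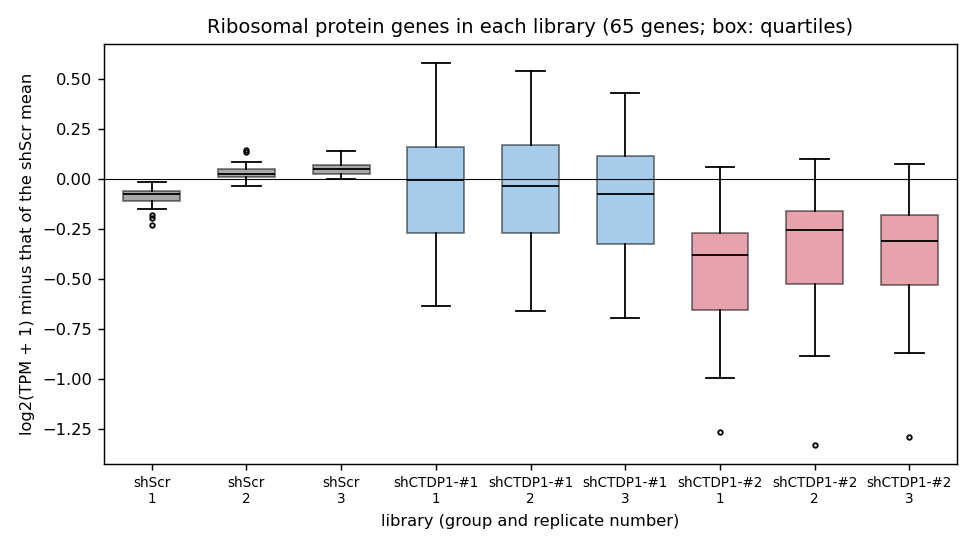
Log2(TPM + 1) of 65 ribosomal protein genes minus that of the shScr mean of each gene (vertical axis), by library (horizontal axis, group and replicate number); boxes give the quartiles and median over genes, whiskers reach the farthest gene within the usual range and circles are genes beyond. The medians are -0.075 to 0.048 with shScr, -0.077 to -0.0064 with shCTDP1-#1 and -0.38 to -0.26 with shCTDP1-#2.

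A change was taken to be made by shCTDP1-#2 alone where shCTDP1-#2 differed from shScr and from shCTDP1-#1 in the same direction and shCTDP1-#1 was not called against shScr. Both comparisons with shScr share its 3 libraries. On the same 14411 intervals, shCTDP1-#1 against shScr gave 5041 higher (35.0%) and 4167 lower (28.9%), together 63.9%, and shCTDP1-#2 against shCTDP1-#1 gave 4583 higher (31.8%) and 2929 lower (20.3%), together 52.1%. Of the 9433 intervals called with shCTDP1-#2, 6288 were called in the same direction with shCTDP1-#1. A further 2326 were not called with shCTDP1-#1, but 610 of those also showed no call between the hairpins. This left 1076 intervals higher with shCTDP1-#2 alone (7.47%) and 640 lower (4.44%). That excess of rises depended on the scaling: 840 were higher and 816 lower after upper-quartile scaling, and 764 and 862 after median-of-ratios scaling. Most of these changes were small: 103 of the higher and 30 of the lower reached 1 on the log2 scale.

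The rise made by shCTDP1-#2 alone that ranked first by size was in the 429 bases at chr1:101360484-101360912. They were listed at 0 in all 6 libraries of the other groups and held 10.2, 7.82 and 6.20 TPM with shCTDP1-#2. They thus passed the threshold for testing only through shCTDP1-#2, and their absence from the controls is in part fixed by that filter. They lie inside a longer interval, chr1:101337943-101361554, whose mean was 31.8 TPM with shScr, 39.1 with shCTDP1-#1 and 43.7 with shCTDP1-#2. HSD11B1 (chr1:209859510-209908295), which regenerates active cortisol, held 0.95, 1.13 and 1.99 TPM with shScr, 1.12 to 1.47 TPM with shCTDP1-#1 and 6.27, 5.88 and 6.05 TPM with shCTDP1-#2 (log2 difference 1.61 against either, adjusted p = 1.1e-05 and 1.9e-05). It is a neighbour of G0S2, which fell with both hairpins. KLHL28 (chr14:45393522-45511525), a kelch-like family gene, stood at 5.80 to 7.62, 6.07 to 8.08 and 21.0 to 22.1 TPM in the same order. TP53INP1 (chr8:95938200-95961639), a p53-induced gene of autophagy and cell death, stood at 2.85 to 3.63, 3.94 to 5.26 and 11.1 to 15.4 TPM. Each of these genes overlaps another tested interval. HSD11B1 shares 37961 bases with chr1:209834709-209897470, which was not called (mean 1.55 to 2.58 TPM). KLHL28 shares 80115 bases with chr14:45431411-45543634, which was also higher (mean 6.39 to 17.7 TPM). The mean of that interval with shCTDP1-#1 was 12.6 TPM, so the locus as a whole may not have moved with shCTDP1-#2 alone. The interval chr8:95907995-96128683, which holds TP53INP1, was lower (36.8 to 31.5 TPM), with a mean of 26.6 TPM with shCTDP1-#1. The other 4 of the 8 rises picked by the rule were unnamed intervals: chr1:153598808-153606816, which overlaps S100A13, chr22:31601250-31601602, chr11:47926875-47927159 and chr19:32880956-32896466. Their means with shCTDP1-#2 were 12.5, 7.90, 11.1 and 6.45 TPM, against 0.17 to 2.32 with shScr and 1.53 to 3.17 with shCTDP1-#1. The interval on chromosome 22 also passed the threshold only through shCTDP1-#2. It was uneven with shCTDP1-#1, at 5.16, 0 and 0 TPM, against 5.72 to 9.68 TPM with shCTDP1-#2. It lies inside chr22:31556168-31603005, which was not called (mean 19.4 to 18.3 TPM).

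Of the falls made by shCTDP1-#2 alone, that of CPA4 (chr7:129932974-129964020), a carboxypeptidase, was the largest. It held 15.5, 13.3 and 15.7 TPM with shScr, 15.8, 14.3 and 14.6 TPM with shCTDP1-#1 and 2.39, 6.39 and 1.93 TPM with shCTDP1-#2 (log2 difference -1.92, SE 0.28, adjusted p = 1.6e-04). The shCTDP1-#2 libraries were uneven, and replicate 2 was the highest of them. VDAC3 (chr8:42249142-42263415), a channel of the outer mitochondrial membrane, was even: 141.5, 145 and 139.8 TPM, then 136.7, 134 and 130.4 TPM, then 61.8, 61.3 and 60.7 TPM (log2 difference -1.20, SE 0.036, adjusted p = 2.2e-09). WWC1, which encodes the Hippo pathway scaffold KIBRA, stood at 71.1 to 80.2, 73.4 to 77.2 and 32.2 to 35.1 TPM. OGFR, the opioid growth factor receptor gene, stood at 77.9 to 86.6, 86.6 to 93.2 and 32.3 to 35.2 TPM. CA12, a membrane carbonic anhydrase, stood at 11.86 to 11.92, 10.6 to 12.1 and 4.09 to 4.75 TPM. ZBTB47, ANKRD52 and SMPD2 made up the 8, with means of 11.02, 28.8 and 8.88 TPM with shScr and 2.92, 11.5 and 3.30 with shCTDP1-#2. In all 8 the 3 shCTDP1-#2 libraries lay below the other 6. The rule that picked them asked for a lower call against both other groups, so this separation is largely set by the choice.

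**Figure D4:**
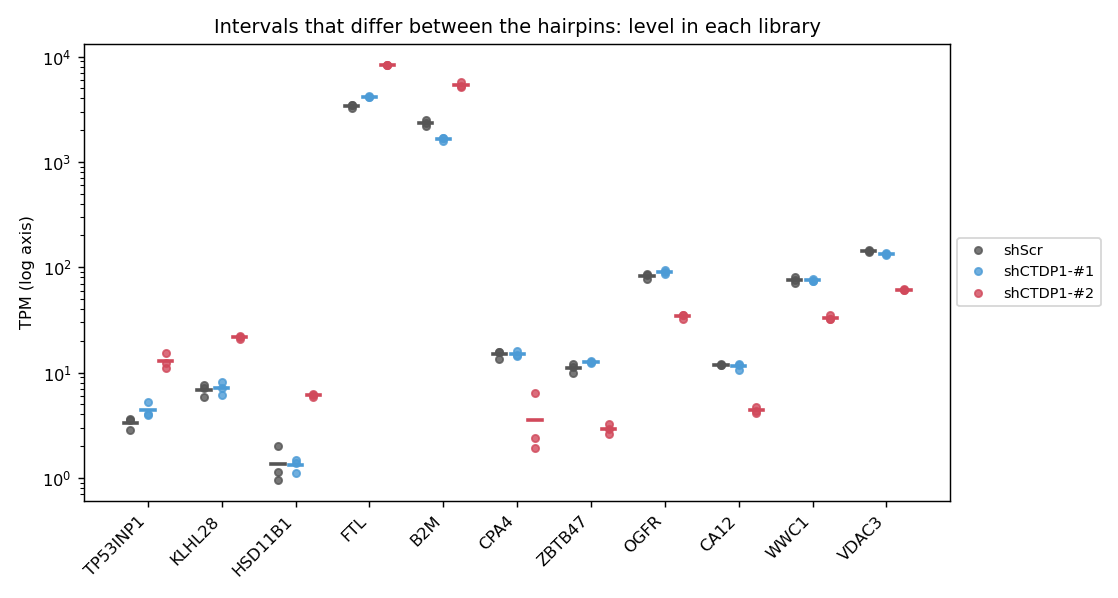
TPM on a log axis in each of the 9 libraries (points) with the group mean (bar) for 11 genes that differ between the hairpins; grey is shScr, blue shCTDP1-#1 and red shCTDP1-#2. For CPA4, ZBTB47, OGFR, CA12, WWC1 and VDAC3 the red points lie under all others. For TP53INP1, KLHL28, HSD11B1, FTL and B2M they lie above all others, and FTL and B2M were also called with shCTDP1-#1. FTL and B2M were picked by a rule that asked for no overlap with shScr. The other genes were picked by one that asked for a call against both other groups, which largely sets their separation.

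Some intervals were called in opposite directions by the hairpins against the shared controls: 484 were higher with shCTDP1-#2 and lower with shCTDP1-#1 (3.36%), and 335 the reverse (2.32%). CHMP5 (chr9:33264940-33281977), an ESCRT-III subunit of endosomal sorting, held 139, 138 and 136 TPM with shScr, 66.6, 67.2 and 65.4 TPM with shCTDP1-#1 and 253.5, 249.2 and 252.2 TPM with shCTDP1-#2. The difference between the hairpins was 1.91 on the log2 scale (limma adjusted p = 2.9e-10), with no overlap among the 3 groups. CHMP5 was picked by a rule that asked for opposite calls, which largely sets this separation. TRMT10A, a tRNA methyltransferase gene, stood at 6.98 to 7.09, 2.87 to 3.84 and 13.7 to 14.6 TPM. CMTM1 and CMTM3, members of a chemokine-like family in the same cluster of chromosome 16, moved against each other. CMTM1 had means of 4.87, 2.04 and 14.6 TPM and CMTM3 of 14.9, 25.2 and 4.93 TPM, in the order shScr, shCTDP1-#1, shCTDP1-#2. CMTM1 was uneven in the controls (7.33, 4.40 and 2.87 TPM), which overlapped shCTDP1-#1 (1.53 to 2.90 TPM). It shares 12745 bases with chr16:66586490-66613038, whose means were 2.63, 2.45 and 6.48 TPM in the same order. The levels of CMTM1 thus rest on how reads were divided between these intervals. LOXL1, a crosslinker of elastin, went from 15.7 TPM to 28.8 and 9.29 TPM, and CCDC190 from 7.44 TPM to 16.4 and 3.25 TPM.

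Interferon-stimulated genes moved in both directions. Against shScr, shCTDP1-#2 had 6 of 11 higher and 2 lower (39.9% and 25.6% over all intervals) with a median log2 difference of 0.28. With shCTDP1-#1, 4 were higher and 5 lower (35.0% and 28.9% over all) with a median of -0.35. Between the hairpins, 6 of 11 were higher with shCTDP1-#2, as were 6 under both rescalings, where 31.8% of all intervals were as deposited, with a median difference of 0.46. IFI6 rose from 26.5, 31.2 and 33.2 TPM to 143, 152 and 135 TPM with shCTDP1-#2 and stood at 102 to 109 TPM with shCTDP1-#1. ISG15, a ubiquitin-like modifier, rose from 130 to 144 TPM up to 200.8 to 219.8 TPM, above shCTDP1-#1 (142 to 165 TPM). IFIT1 was lower than in the controls with both hairpins, at 6.83 to 8.53 TPM with shCTDP1-#2 against 12.8 to 14.7 TPM with shScr. MX1, IRF1 and IRF7 rose by 1.88, 1.03 and 1.23 and were not called between the hairpins.

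More intervals carried a value with either CTDP1 hairpin than with shScr. The shCTDP1-#2 libraries listed 14646 ± 90 intervals at 1 TPM or more (mean ± SD, n = 3) against 13682 ± 62 with shScr, and every shCTDP1-#2 library was above every control. With an exact permutation test (two-sided), p was 0.1, the smallest that 3 against 3 allows. The shCTDP1-#1 libraries were above every control as well, with 14376 to 14516 intervals at 1 TPM or more. Above 0 TPM they listed 21901 to 22491 intervals, against 21562 to 22087 with shCTDP1-#2 and 19553 to 20063 with shScr. The 13 mitochondrial mRNAs showed no call with limma, and none at an unadjusted p under 0.05 either. All mitochondrial intervals together, which are more than these mRNAs, took 1.65 to 2.29% of TPM with shCTDP1-#2. With shScr they took 1.12 to 4.49%, so the controls alone spanned the knockdown.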

How the data were processed

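RNA was sequenced from 9 libraries of MDA-MB-231 cells, 3 each with shScr, shCTDP1-#1 and shCTDP1-#2. STAR and RSEM on hg19 are named in the submitters' processing notes, without versions. Every library has its own deposited table of 57773 intervals. The deposited values are taken as TPM because each column has the fixed total that TPM has. Depth is therefore unknown, and no counting error can be given. Files were joined on position. The 2246 rows that shared an interval were left out, leaving 55527 intervals, and 2 files held a blank row.

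Intervals with at least 1 TPM in 3 of the 6 libraries were tested as log2(TPM + 1) with limma 3.58.1 (trend and robust options, statmod 1.5.0, R 4.3.3). All 9 libraries entered one fit of group means with 6 residual degrees of freedom. P-values were adjusted by Benjamini-Hochberg over 14411 intervals, and an adjusted p under 0.05 was called. Library counts were compared with an exact two-sided permutation test. The fit was tested on simulated data. The alternatives tried changed the pseudocount, filter, scaling, libraries, block, options and test threshold.

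The members, lists and tests were chosen with earlier results of these data known. Named intervals are those on assembled chromosomes with an adjusted p under 0.05, at least 5 TPM in the higher group and groups that do not overlap, taking the 12 largest rises and 12 falls in log2, 5 each way in TPM, 8 each way for shCTDP1-#2 alone and 3 each way in opposite directions (the last 2 without the overlap condition), plus list members. The files hold no names. Hg19 positions of list genes were written from knowledge and matched to starts in the files, a few after nearby rows were seen, which found 243 of 259 nuclear symbols. Intervals picked by rule were named after their values were seen, 41 of 55. As a check, 171 of the 243 had the same span as the gene of that name in GENCODE v29, which is of another build, and no coordinate was converted. An exploratory look at GENCODE v29 genes of equal span near the same position helped in naming. The 13 mitochondrial mRNAs matched at both ends. Promoters are RefSeq's. Values of some list members are not reported here.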

Additional observations from a re-analysis of the deposited data

Results flagged for a closer look

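The 2 hairpins shared most calls against shScr but differed at many intervals in the test between them. Of the 9433 intervals called with shCTDP1-#2, 6288 were called in the same direction with shCTDP1-#1. Of those, 3240 had no call between the hairpins. Both comparisons use the same shScr libraries. Of the 14411 intervals, 4583 were higher and 2929 lower with shCTDP1-#2 than with shCTDP1-#1 (limma, adjusted p under 0.05). Against the shared shScr libraries, 484 intervals were called higher with shCTDP1-#2 and lower with shCTDP1-#1, and 335 were called lower with shCTDP1-#2 and higher with shCTDP1-#1. B2M, CHMP5 and CMTM3 are examples given above. CTDP1 itself differed between the hairpins, with means of 2.51 TPM with shCTDP1-#1 and 3.76 TPM with shCTDP1-#2. The part of that difference, or of any other property of the hairpins, in these counts was not tested.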

How the results depend on the processing

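Under 21 alternatives to the settings used, the counts of called intervals stayed within 1.5 times, except where the test asked for more than a 1.5-fold change. Then shCTDP1-#2 against shScr gave 1445 higher and 584 lower, shCTDP1-#2 against shCTDP1-#1 gave 428 and 234, and shCTDP1-#2 alone 102 and 60, by construction of a stricter test. Leaving out 1 library at a time gave 5362 to 5754 higher and 3369 to 3700 lower against shScr, 4082 to 4573 higher and 2605 to 2912 lower for shCTDP1-#2 against shCTDP1-#1, and from 938 up to 1140 and from 548 up to 673 for shCTDP1-#2 alone. The excess of intervals with shCTDP1-#2 over shScr was 963.7 at 1 TPM, 1831 at 0.1 TPM, 387 at 5 TPM and 245.7 at 10 TPM. With a library left out, this excess lay between 937 and 1015.5 at 1 TPM and between 1958 and 2229 above 0. The cause was not tested.

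Any pairing by replicate number was weak: residuals of libraries with the same number correlated at -0.0079 to 0.075 and others at -0.091 to 0.052. Still, 7 of 9 libraries were closest to a library of their own number. Whether the numbers mark a shared step was not tested. With the replicate number as a block, 5707 intervals were higher and 3649 lower against shScr, 4507 and 2891 between the hairpins, and 1084 and 640 for shCTDP1-#2 alone. With a library left out, 3 uncalled genes changed sign: BRCA1 ranged from -0.12 to 0.049, EPCAM from -0.24 to 0.058 and HIST1H1E from -0.037 to 0.22. TPM limits what can be said of low intervals, since their depth is unknown.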
